A study of Mus musculus with 12 samples.

Results

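The 12 heart libraries compared here came from C57BL/6 mice in a design with a virus and an operation crossed, and the quantity described is the interaction of virus and operation. Each mouse had received adeno-associated virus of serotype 9 (AAV9), a serotype that reaches heart muscle well, which carried either PRODH or no gene of interest (vector). The series' design text calls the PRODH overexpression heart-specific, and the labels name no promoter. After 3 weeks the mice underwent transverse aortic constriction (TAC), a banding of the aortic arch that makes the left ventricle pump against high pressure, or a sham operation, and hearts were taken 4 weeks after the operation. The 4 groups of 3 libraries were PRODH virus with TAC (PRODH TAC), PRODH virus with sham operation (PRODH sham), vector virus with TAC (vector TAC) and vector virus with sham operation (vector sham). The labels list the vector mice as wild type and give no ages or litters, and no mouse went without virus, so the controls carry AAV9 as well. All 12 of the series' 12 libraries enter the interaction, which is the response to TAC in PRODH hearts (PRODH TAC minus PRODH sham) minus the response to TAC in vector hearts (vector TAC minus vector sham). A value below 0 therefore means that TAC raised a gene less, or lowered it more, in PRODH hearts than in vector hearts.

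PRODH is proline dehydrogenase, an enzyme of the inner mitochondrial membrane that takes the first step in the breakdown of proline to glutamate and passes its electrons to the respiratory chain. Pressure overload is known to switch heart muscle toward fetal gene expression, with more natriuretic peptide and slow myosin and less of the genes for fatty acid oxidation and repolarising channels, while fibroblasts lay down collagen and other matrix. An interaction differs from a simple difference between loaded hearts of both kinds, because it subtracts what the virus does in unloaded hearts.

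Libraries held 10.1 to 15.2 M reads, with vector TAC replicates 2 and 3 the deepest at 13.95 and 15.23 M. Heart muscle markers were high in every library: the mean log2 level of 12 ventricular myocyte markers was 15.4 to 15.5 in PRODH TAC, 15.5 to 15.7 in PRODH sham, 14.9 to 15.3 in vector TAC and 15.22 to 15.65 in vector sham hearts. A pair of libraries stood apart. The mean log2 level of 13 tested epicardial and mesothelial markers, from the cell layer that covers the heart, was 5.64 in vector TAC replicate 1 and 5.41 in PRODH sham replicate 2, against 1.78 to 3.72 in the other libraries. That of 5 red blood cell markers was also highest in this pair, at 13.56 and 13.91, against 10.31 to 12.43 in the other libraries. Vector TAC replicate 1 also had lower values of many load-induced genes than the other vector TAC hearts. Where a gene or list described below passed without this library but not with all 12, its values without it are given as well. For a gene whose response to TAC is smallest in this library, leaving it out enlarges the vector response. It also changes the estimate of spread that all comparisons share. TAC against sham in PRODH hearts, which holds no vector library, gave 5 calls with all 12 libraries and 287 without vector TAC replicate 1. A pass without this library is therefore not always a larger interaction. That of Pla2g5, described below, went from 1.96 to 1.85 while its limma adjusted p went from 0.0646 to 0.0146. Fits without other libraries went either way. The interaction of Nppb, described below, ranged over -1.458 to -1.06 in the 12 fits without a library, against -1.36 without vector TAC replicate 1. Postn and Col1a1, described below, each passed in 1 of the 12 fits without a library, with limma adjusted p up to 0.294 and 0.785.

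Prodh, the gene that the virus carries, was the check on the labels. Prodh had 964, 1319.9 and 1021 normalized reads in PRODH TAC hearts, 965, 497 and 1072 in PRODH sham hearts, 245, 172 and 159.6 in vector TAC hearts and 334, 292 and 379 in vector sham hearts. Every PRODH heart lay above every vector heart, and vector TAC hearts lay below vector sham hearts without overlap. PRODH against vector was 2.52 ± 0.24 in TAC hearts and 1.26 ± 0.24 in sham hearts (limma adjusted p = 0.000174 and 0.616). In sham hearts Prodh itself therefore did not pass. The response to TAC was 0.45 ± 0.24 in PRODH hearts and -0.82 ± 0.24 in vector hearts (log2 difference ± standard error, limma adjusted p = 0.626 and 0.0553), so neither passed the threshold. The interaction was 1.26 ± 0.35 (95% interval 0.52 to 2.00) and did not pass either (limma adjusted p = 0.225). Without vector TAC replicate 1 it was 1.45 and passed (limma adjusted p = 0.0264). The files do not say if transcripts of the virus add to the Prodh value.

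Across the transcriptome, few genes passed the test of the interaction. Of 21173 genes tested, 22 (0.104%) had an interaction past an adjusted p of 0.05, 10 (0.0472%) above 0 and 12 (0.0567%) below 0. With libraries scaled by their total reads 17 passed, 12 above 0 and 5 below 0. All 22 followed the same scheme: the gene moved after TAC in vector hearts, had a smaller response in PRODH hearts, and differed between PRODH TAC and vector TAC hearts. The 12 with an interaction below 0 rose after TAC in vector hearts by 1.06 to 6.54 and had responses of -0.75 to 0.98 in PRODH hearts, and the 10 above 0 had responses of -2.29 to -1.02 in vector hearts and -0.37 to 0.74 in PRODH hearts. None of the 22 passed the test between PRODH sham and vector sham hearts, which 0 of the 21173 genes passed, Prodh included. In 20 of the 22 these libraries overlapped, and the share over all genes was not counted, so this is a description only. The exceptions were P2ry1 and Sprr1a, the gap in Sprr1a lying between values of 1 read each. In all 22 the PRODH TAC and vector TAC libraries did not overlap. Over all genes tested, PRODH TAC libraries lay wholly below vector TAC libraries in 10% and wholly above in 10.6%.

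The component comparisons differed widely in their number of calls. TAC against sham gave 5 calls (0.0236%) in PRODH hearts, 4 higher (0.0189%) and 1 lower (0.00472%), and 1645 (7.77%) in vector hearts, 787 higher (3.72%) and 858 lower (4.05%). PRODH against vector gave 831 calls (3.92%) in TAC hearts, 449 higher (2.12%) and 382 lower (1.8%), and 0 (0%) in sham hearts by limma, where 871 genes had an unadjusted p under 0.05 and edgeR also called 0. A gene called in one arm and not in the other is not thereby shown to differ between arms. The interaction itself has a median standard error of 0.42 over all genes, against 0.30 for a comparison of 2 groups, and 1821 genes (8.6%) had an unadjusted p under 0.05 for it, 936 above 0 (4.42%) and 885 below 0 (4.18%). Vector TAC replicate 1 weighed heavily on these counts. Without it 396 genes (1.87%) passed the interaction test, 139 (0.656%) above 0 and 257 (1.21%) below 0, among them all 22. No gene passed without PRODH TAC replicate 3, PRODH sham replicate 2, vector TAC replicate 2 or vector sham replicate 2, each left out singly, although all 22 kept their direction in each of those fits.

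**Figure D1:**
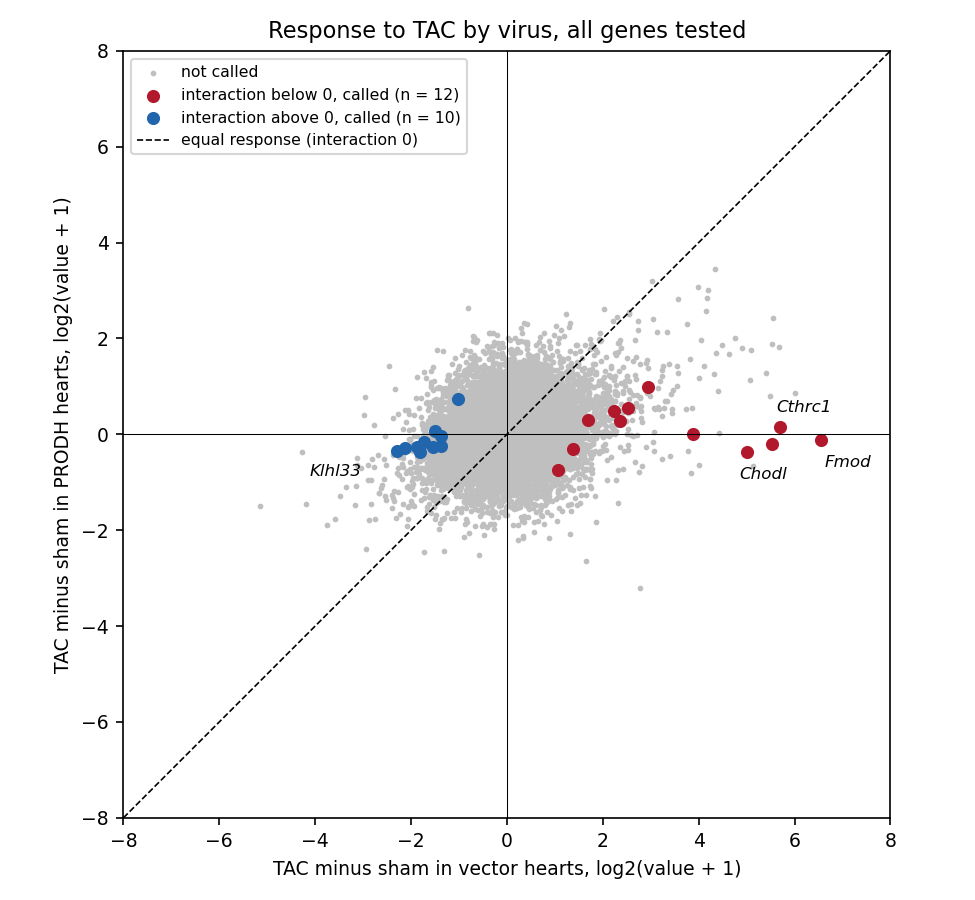
Response to TAC (log2 difference, TAC minus sham) in vector hearts on the x axis and in PRODH hearts on the y axis, 1 point per gene over 21173 genes, with the 22 genes whose interaction passed in red (below 0) and blue (above 0). The red points lie right of 0 and well below the dashed line of equal responses, from 1.06 to 6.54 on the x axis, and the blue points lie left of 0 and above that line.

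Several of the large interactions below 0 belonged to genes of the extracellular matrix, which TAC raised in vector hearts and left near sham levels in PRODH hearts. Fmod, fibromodulin, a small proteoglycan that binds collagen fibrils, had 16.9, 9.88 and 23.1 normalized reads in PRODH TAC hearts, 5.69, 89.4 and 8.75 in PRODH sham hearts, 300.1, 2232 and 1608 in vector TAC hearts and 6.17, 10.9 and 14.7 in vector sham hearts. The vector TAC values lay far above all others, with replicate 1 the lowest of them, while PRODH TAC hearts overlapped both sham groups. The interaction of Fmod was -6.65 ± 1.17 (limma adjusted p = 0.0461), made of responses of -0.11 ± 0.83 in PRODH hearts and 6.54 ± 0.83 in vector hearts. Cthrc1, a secreted protein of activated fibroblasts, had 1.99, 4.39 and 3.29 normalized reads in PRODH TAC hearts, 3.41, 1.1 and 4.38 in PRODH sham hearts, 45.7, 219 and 114 in vector TAC hearts and 3.09, 0 and 1.05 in vector sham hearts. PRODH TAC hearts had few reads, like both sham groups, and overlapped them, and the interaction was -5.55 ± 0.91 (limma adjusted p = 0.0384).

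Both microfibril genes among the calls, whose proteins decorate elastic fibres, had smaller responses in PRODH hearts that did not pass. Mfap4 had 572, 406 and 536 normalized reads in PRODH TAC hearts, 240.1, 327 and 206 in PRODH sham hearts, 1534, 3153 and 2224 in vector TAC hearts and 285, 254 and 324 in vector sham hearts. All PRODH TAC values lay above both sham groups and below all vector TAC values. The interaction of Mfap4 was -1.96 ± 0.32 (95% interval -2.65 to -1.27, limma adjusted p = 0.0384), and the response in PRODH hearts, 0.98 ± 0.23, did not pass on its own (limma adjusted p = 0.189). Mfap5 had 718, 796 and 604 normalized reads in PRODH TAC hearts, 385, 600.4 and 469 in PRODH sham hearts, 2056, 4415 and 3246 in vector TAC hearts and 649.9, 552 and 429.8 in vector sham hearts. Its PRODH TAC hearts exceeded PRODH sham hearts by a narrow margin and overlapped vector sham hearts, and its interaction was -1.97 ± 0.34 (limma adjusted p = 0.0461), with a response in PRODH hearts of 0.56 ± 0.24 (limma adjusted p = 0.556).

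Other secreted or matrix-degrading products showed the same order. Fibin, a secreted protein named from the fin bud of zebrafish, had 329.6, 269 and 283 normalized reads in PRODH TAC hearts, 181, 286 and 178 in PRODH sham hearts, 998, 1792 and 1651 in vector TAC hearts and 351, 287 and 279.5 in vector sham hearts. PRODH TAC hearts overlapped both sham groups, and the interaction was -1.75 ± 0.31 (limma adjusted p = 0.0461). Ctsk, cathepsin K, a cysteine protease that cleaves collagen, had 121, 116 and 104 normalized reads in PRODH TAC hearts, 89.9, 100.4 and 88.6 in PRODH sham hearts, 273, 303 and 340.4 in vector TAC hearts and 86.4, 106 and 90.4 in vector sham hearts. The vector TAC hearts formed a tight high group, PRODH TAC hearts lay just above PRODH sham hearts, and the interaction was -1.40 ± 0.22 (limma adjusted p = 0.0376). In whole-heart RNA, fewer cells of a type and less RNA per cell cannot be told apart, for these genes and for those that follow.

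A pair of genes with few reads was called outside the rule for naming and is given because every call is accounted for. Chodl, chondrolectin, a membrane lectin, had 0 reads in all PRODH TAC and all vector sham hearts, 1.14, 0 and 0 normalized reads in PRODH sham hearts and 12.3, 60.2 and 40.4 in vector TAC hearts. With 3 reads in the whole group as the floor, it was at least 38.5-fold higher in vector TAC than in PRODH TAC hearts and at least 41.2-fold higher than in vector sham hearts. Gm32255, an unnamed predicted gene, was read only in vector TAC hearts, at 8.92, 17.8 and 16.4 normalized reads, at least 14.3-fold above PRODH TAC hearts on the same floor. The fitted interactions of -5.38 and -3.89 (limma adjusted p = 0.0261 and 0.0376) depend on the pseudocount for such genes and are no bounds.

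The remaining calls below 0 were Nupr1, Csrp2, Eya2 and Sprr1a. Nupr1, a small nuclear protein induced by many kinds of cell stress, had 117, 115 and 112 normalized reads in PRODH TAC hearts, 76.2, 110.4 and 99.6 in PRODH sham hearts, 453, 551 and 422 in vector TAC hearts and 120.3, 85.1 and 74.6 in vector sham hearts. The PRODH TAC hearts were nearly identical to each other and a little above PRODH sham hearts, within the range of vector sham hearts. Its interaction was -2.07 ± 0.28 (95% interval -2.67 to -1.48, limma adjusted p = 0.0137), and over the 12 fits that each left out a library it was -2.27 to -1.93. Csrp2, a LIM-domain protein best known from smooth muscle, had 192, 247 and 186 normalized reads in PRODH TAC hearts, 273, 268 and 231 in PRODH sham hearts, 618, 636 and 514 in vector TAC hearts and 264, 216 and 198 in vector sham hearts. PRODH TAC hearts overlapped both sham groups and vector TAC hearts stood clear of all others, with an interaction of -1.70 ± 0.22 (limma adjusted p = 0.0137) and a range of -1.83 to -1.61 over the same 12 fits.

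Eya2, a transcriptional coactivator with phosphatase activity, had 31.8, 31.8 and 35.1 normalized reads in PRODH TAC hearts, 55.8, 65.1 and 48.1 in PRODH sham hearts, 112, 140.5 and 98.6 in vector TAC hearts and 58.6, 45.3 and 62 in vector sham hearts. All PRODH TAC values lay below all sham values and all vector TAC values above them. The interaction was -1.81 ± 0.32 (limma adjusted p = 0.0461), while the response in PRODH hearts alone, -0.75 ± 0.23, did not pass (limma adjusted p = 0.347). Sprr1a, a small proline-rich protein known from the skin barrier and from stressed heart muscle, had 7.94, 1.1 and 0 normalized reads in PRODH TAC hearts, 1.14, 1.1 and 5.47 in PRODH sham hearts, 73.6, 54.3 and 47.9 in vector TAC hearts and 0, 0 and 1.05 in vector sham hearts. It was at a few reads everywhere but in vector TAC hearts. Its interaction of -5.74 ± 1.01 (limma adjusted p = 0.0461) ranged over -9.03 to -3.55 with other settings, since the pseudocount weighs on a gene with so few reads.

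The 10 genes with an interaction above 0 were ones that TAC lowered in vector hearts and that did not pass the test in PRODH hearts. Hcn2, a channel of the pacemaker current, had 441, 540.2 and 563 normalized reads in PRODH TAC hearts, 612, 469 and 507 in PRODH sham hearts, 261, 189 and 256 in vector TAC hearts and 624, 659 and 537 in vector sham hearts. Only the vector TAC hearts stood apart, and PRODH TAC hearts overlapped both sham groups. The interaction was 1.33 ± 0.22 (limma adjusted p = 0.0405), with a response of -0.04 ± 0.16 in PRODH hearts and -1.37 ± 0.16 in vector hearts. P2ry1, a receptor for extracellular ADP, had 250.2, 278 and 266 normalized reads in PRODH TAC hearts, 317, 286 and 341 in PRODH sham hearts, 143, 132 and 134 in vector TAC hearts and 362, 348 and 359 in vector sham hearts. Its 4 groups did not overlap at all, in the order vector TAC, PRODH TAC, PRODH sham and vector sham from low to high, and the spread within each group was small. The interaction of P2ry1 was 1.14 ± 0.17 (95% interval 0.77 to 1.504, limma adjusted p = 0.0261), the smallest in size among the 22.

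Pdp2, the phosphatase that switches on pyruvate dehydrogenase and so the entry of pyruvate into the citrate cycle, had 237, 259 and 340.3 normalized reads in PRODH TAC hearts, 389, 312 and 374 in PRODH sham hearts, 108, 87 and 124 in vector TAC hearts and 383, 311 and 439 in vector sham hearts. PRODH TAC hearts overlapped both sham groups and lay above every vector TAC heart, with an interaction of 1.45 ± 0.26 (limma adjusted p = 0.0461). Klhl33, a kelch-family protein, had 281, 268 and 296 normalized reads in PRODH TAC hearts, 361, 288 and 447 in PRODH sham hearts, 109, 62.4 and 81.5 in vector TAC hearts and 506, 437 and 306 in vector sham hearts. PRODH TAC hearts were tightly grouped, below all vector sham hearts and far above vector TAC hearts, and the interaction of 1.94 ± 0.31 was the largest above 0 among the 22 calls (limma adjusted p = 0.0376). Wnk2, a kinase that acts on ion cotransport, had 679, 900.4 and 748 normalized reads in PRODH TAC hearts, 999, 709 and 919 in PRODH sham hearts, 345, 246 and 336 in vector TAC hearts and 789.8, 1080.3 and 1209 in vector sham hearts. PRODH TAC hearts overlapped both sham groups and lay above every vector TAC heart, and its interaction was 1.55 ± 0.26 (limma adjusted p = 0.0424).

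Dusp18, a dual-specificity phosphatase, had 528, 632 and 551 normalized reads in PRODH TAC hearts, 587, 430.5 and 633 in PRODH sham hearts, 223, 197 and 275 in vector TAC hearts and 649.9, 632 and 683 in vector sham hearts. Lingo3, a membrane protein with leucine-rich repeats, had 137, 202 and 176 normalized reads in PRODH TAC hearts, 226, 201 and 196 in PRODH sham hearts, 61.4, 37.9 and 45.2 in vector TAC hearts and 224, 217 and 187 in vector sham hearts. Whrn, whirlin, a scaffold protein known from the hair cells of the ear, had 345, 478 and 428 normalized reads in PRODH TAC hearts, 522, 449 and 528 in PRODH sham hearts, 172, 116 and 133 in vector TAC hearts and 389.8, 678 and 503 in vector sham hearts. In each of the 3 genes PRODH TAC hearts overlapped both sham groups and cleared vector TAC hearts, and the interactions were 1.57 ± 0.22, 1.83 ± 0.28 and 1.61 ± 0.28 (limma adjusted p = 0.0201, 0.0261 and 0.0461). Tmem82, a transmembrane protein, had 201, 198 and 195 normalized reads in PRODH TAC hearts, 250.3, 265 and 199 in PRODH sham hearts, 92.6, 72.8 and 78.8 in vector TAC hearts and 202, 255 and 263 in vector sham hearts. Its PRODH TAC hearts lay just below all vector sham hearts, overlapped PRODH sham hearts and stood clear above vector TAC hearts, with an interaction of 1.29 ± 0.23 (limma adjusted p = 0.0461).

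**Figure D2:**
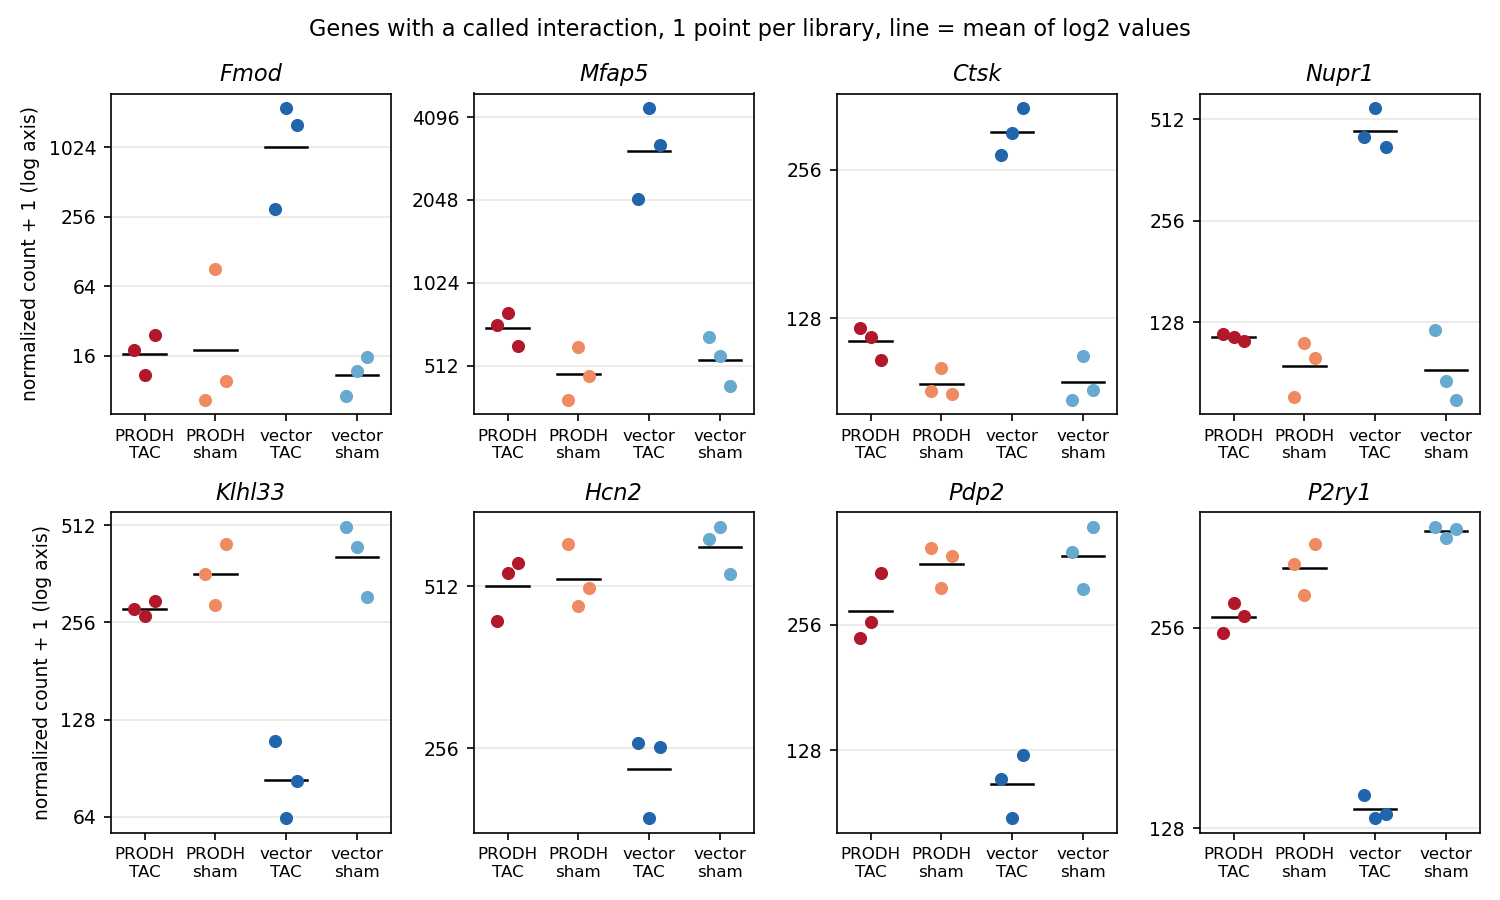
Normalized read count + 1 on a log axis for 8 genes whose interaction passed, 1 point per library in 4 groups, with a line at the mean of the log2 values. In the upper panels (Fmod, Mfap5, Ctsk, Nupr1) the vector TAC hearts lie above the other groups, and in the lower panels (Klhl33, Hcn2, Pdp2, P2ry1) they lie below them.

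The smallest p-value of all belonged to Gm28439, a gene outside the rule for naming and an uncertain one. Gm28439 had 4514, 5761 and 5870.0 normalized reads in PRODH TAC hearts, 3398, 2659 and 3619 in PRODH sham hearts, 1539, 1340.2 and 1533 in vector TAC hearts and 2567, 3195 and 3210.2 in vector sham hearts. It was the only call whose PRODH TAC hearts exceeded every sham heart while vector TAC hearts lay below every sham heart, with responses of 0.74 ± 0.15 in PRODH hearts and -1.02 ± 0.15 in vector hearts and an interaction of 1.76 ± 0.22 (limma adjusted p = 0.0137). GENCODE M21 places it at chr1:24611535-24612410 on the minus strand (GRCm38) as an unprocessed pseudogene, a nuclear copy of mitochondrial DNA. Its 876 bases match mt-Nd4, the mitochondrial gene of a complex I subunit, with 0 mismatches. The first 120 bases of the pseudogene and of mt-Nd4 are shown because no read from them could tell the 2 apart, and no base is in capitals because none differs.
Gm28439: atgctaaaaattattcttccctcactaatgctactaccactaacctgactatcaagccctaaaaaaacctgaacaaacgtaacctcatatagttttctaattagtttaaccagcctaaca
mt-Nd4: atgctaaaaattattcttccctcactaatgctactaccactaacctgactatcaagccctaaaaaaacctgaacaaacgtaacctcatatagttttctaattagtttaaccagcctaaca
The deposited table lists 0 mitochondrially encoded genes, so reads of either source counted under Gm28439 cannot be told apart. The other 5 tested genes of the same stretch of chromosome 1, which copy other mitochondrial genes at an identity of 99.7% to 100%, did not pass and did not share a direction. Gm28437 (a copy of mt-Co3) and Gm10925 (mt-Atp6) had interactions of 1.19 and 0.48, and without vector TAC replicate 1 Gm28437 passed at 1.80 (limma adjusted p = 0.0219). Gm28438 (mt-Nd3), Gm28661 (mt-Co2) and Gm29216 (mt-Co1) had -0.44, -0.22 and -0.44, and these 3 changed sign when PRODH sham replicate 2 and vector TAC replicate 1 were left out together.

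Promoters of the called genes were searched for 3 short motifs of factors known in loaded heart muscle and in its metabolism, on both strands, in RefSeq's table of 300 bases around each start (250 before and 50 after, build GRCm38.p6). Of the 22 genes, 7 below 0 and 8 above 0 matched the table. A gene was counted if any of its promoters held the motif. The shares over all promoters count each promoter singly, so genes and shares are unlike measures. CATTCC, the core of TEAD sites, lay in 1 of 7 and 3 of 8, against 14.7% of all 32851 promoters, and TGANTCA, an AP-1 form, in 1 of 7 and 0 of 8, against 7.81%. AAGGTCA, read by the oestrogen-related receptors, lay in 0 of 7 and 1 of 8, against 4.72%. The windows of Hcn2 (chr10:79716384-79716683, plus strand) and Fibin (chr2:110362944-110363243, minus strand) are shown as an example of a gene above 0 and of a gene below 0, with the motif matches in capitals. In Hcn2 these are AAGGTCA on the other strand, and in Fibin CATTCC.
Hcn2: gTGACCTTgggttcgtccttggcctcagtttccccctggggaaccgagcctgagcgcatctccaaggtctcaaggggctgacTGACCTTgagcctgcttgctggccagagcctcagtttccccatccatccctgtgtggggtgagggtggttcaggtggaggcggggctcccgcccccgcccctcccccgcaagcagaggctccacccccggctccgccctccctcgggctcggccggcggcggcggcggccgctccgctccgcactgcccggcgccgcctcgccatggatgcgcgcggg
Fibin: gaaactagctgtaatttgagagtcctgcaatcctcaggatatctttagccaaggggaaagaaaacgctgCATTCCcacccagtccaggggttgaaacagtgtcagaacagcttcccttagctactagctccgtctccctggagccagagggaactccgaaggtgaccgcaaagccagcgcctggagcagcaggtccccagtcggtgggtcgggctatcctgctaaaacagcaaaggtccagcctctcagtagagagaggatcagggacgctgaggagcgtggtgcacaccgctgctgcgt
A match is a sequence only and says nothing of binding.

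Of the genes with the next smallest p-values 5 were named by the rule and did not pass. Retnla, which marks alternatively activated macrophages in the mouse, had 46.7, 141 and 63.7 normalized reads in PRODH TAC hearts, 60.3, 114 and 133 in PRODH sham hearts, 7.81, 1.49 and 4.79 in vector TAC hearts and 139.9, 109 and 57.8 in vector sham hearts. It was nearly lost in vector TAC hearts alone, with an interaction of 3.90 ± 0.71 (limma adjusted p = 0.0551). Thbs4, thrombospondin 4, a secreted matrix protein, had 91.3, 128 and 131 normalized reads in PRODH TAC hearts, 61.4, 56.3 and 73.3 in PRODH sham hearts, 799.9, 11819.9 and 7880.4 in vector TAC hearts and 44.2, 58 and 105 in vector sham hearts. Vector TAC replicate 1 was far below the other vector TAC hearts but still above every heart of the other groups, and the interaction was -5.15 ± 0.95 (limma adjusted p = 0.0551). Tmem119, a membrane protein, Mylk4, a kinase of the myosin light chain kinase family, and Pla2g5, a secreted phospholipase, had interactions of -1.93 ± 0.35, 1.67 ± 0.31 and 1.96 ± 0.37 (limma adjusted p = 0.0551, 0.0551 and 0.0646). All 5 passed without vector TAC replicate 1. In that fit Retnla, Thbs4, Tmem119, Mylk4 and Pla2g5 had 4.30, -6.345, -2.06, 1.75 and 1.85 (limma adjusted p = 0.00185, 1.42e-07, 0.00461, 0.00529 and 0.0146).

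The classical genes of the loaded heart had interactions below 0, none of which passed over all 12 libraries. Nppb, which encodes B-type natriuretic peptide, had 6963, 6821 and 8023 normalized reads in PRODH TAC hearts, 2643, 2568 and 2668 in PRODH sham hearts, 14077, 15576 and 15581 in vector TAC hearts and 2558, 2677 and 1542 in vector sham hearts. The sham groups overlapped, PRODH TAC hearts lay clear above them and vector TAC hearts clear above those, with low spread in both TAC groups. Its responses of 1.46 ± 0.18 in PRODH hearts and 2.78 ± 0.18 in vector hearts both passed (limma adjusted p = 0.00662 and 2.81e-06), and the interaction of -1.31 ± 0.26 fell short (95% interval -1.86 to -0.77, limma adjusted p = 0.0657). Nppa, atrial natriuretic peptide, had 809, 1675 and 1592 normalized reads in PRODH TAC hearts, 269, 418 and 558 in PRODH sham hearts, 5789.8, 22464 and 15172 in vector TAC hearts and 446, 614 and 810.2 in vector sham hearts. PRODH TAC hearts exceeded PRODH sham hearts and overlapped vector sham hearts, and the interaction was -2.67 ± 0.58 (limma adjusted p = 0.104).

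Myh7, the slow myosin heavy chain, had 2451, 1277 and 1781 normalized reads in PRODH TAC hearts, 718, 1000.0 and 963 in PRODH sham hearts, 4242, 17684 and 14192 in vector TAC hearts and 491, 796 and 1725 in vector sham hearts. Its vector TAC hearts were uneven, with replicate 1 the lowest, but all lay above all PRODH TAC hearts, and the interaction was -2.54 ± 0.66 (limma adjusted p = 0.204). Postn, periostin, a matrix protein of activated fibroblasts, had 1427, 1349 and 1335 normalized reads in PRODH TAC hearts, 544, 503 and 477 in PRODH sham hearts, 4752, 26238 and 17799 in vector TAC hearts and 896, 712 and 673 in vector sham hearts. PRODH TAC hearts were tight, above both sham groups and below vector TAC hearts, with an interaction of -2.68 ± 0.57 (limma adjusted p = 0.095). Without vector TAC replicate 1 the interactions of Nppb, Nppa, Myh7 and Postn passed, at -1.36, -3.23, -3.17 and -3.41 (limma adjusted p = 0.00596, 0.000562, 0.00182 and 1.42e-07).

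**Figure D3:**
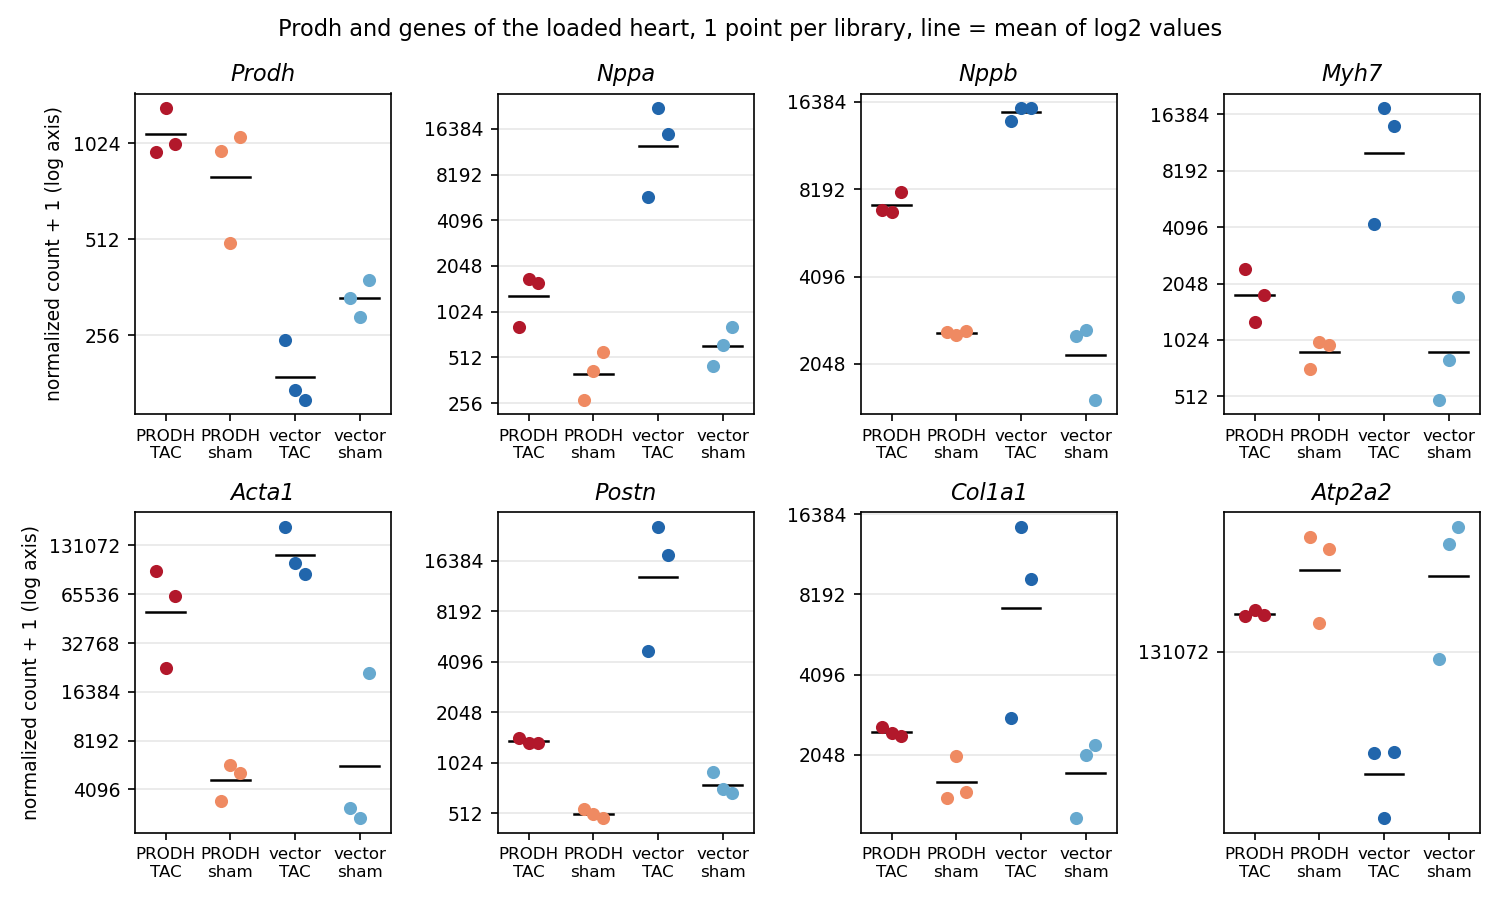
Normalized read count + 1 on a log axis for Prodh and 7 genes of the loaded heart, 1 point per library in 4 groups, with a line at the mean of the log2 values. Vector TAC replicate 1, the leftmost vector TAC point of each panel, is the lowest of its group for Nppa (5789.8), Myh7 (4242) and Postn (4752).

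For other genes of the loaded heart the interaction was less certain. Acta1, skeletal muscle actin, had 90951, 23061 and 63673 normalized reads in PRODH TAC hearts, 3466, 5777 and 5199.7 in PRODH sham hearts, 171453, 101847 and 87443 in vector TAC hearts and 3132, 2719 and 21556 in vector sham hearts. TAC and sham hearts did not overlap in either arm, PRODH TAC and vector TAC hearts overlapped, and the interaction of -0.90 ± 0.90 had an interval of -2.82 to 1.02 (limma adjusted p = 0.839). Col1a1 and Col3a1, the main fibrillar collagens, had interactions of -1.43 ± 0.59 and -1.40 ± 0.41 (limma adjusted p = 0.511 and 0.262), and without vector TAC replicate 1 both passed at -2.12 and -1.80 (limma adjusted p = 0.00148 and 0.00185). Atp2a2, which pumps calcium back into the sarcoplasmic reticulum, and Myh6, the fast myosin heavy chain, had interactions of 0.71 ± 0.54 and 0.49 ± 0.62 with intervals that span 0 (limma adjusted p = 0.785 and 0.876), that of Myh6 changing sign under quantile scaling. In the proline pathway, Aldh4a1, which completes the breakdown of proline after PRODH, had 0.64 ± 0.22, and Pycr1, which makes proline in mitochondria, had -1.97 ± 0.52 (limma adjusted p = 0.37 and 0.21).

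Gene lists were read by the number of members that passed and by their median interaction. Over all 21173 genes tested, 0.104% were called and the median was -0.006. Of those genes 10712 lay below 0 and 10461 above 0. An unadjusted p under 0.05 was found below 0 in 4.18% and above 0 in 4.42%. The lists were chosen with earlier results of these data known, so their counts and medians are a description and no independent support. Counts of members that passed without vector TAC replicate 1 stand beside that fit's larger share of all genes, 1.21% below 0 and 0.656% above 0. Lists of matrix and fibroblast genes had medians below 0. The list of matricellular and proteoglycan matrix genes held 5 of the 12 calls below 0 (Chodl, Cthrc1, Mfap4, Mfap5 and Fmod) among 40 tested members. All 40 had an interaction below 0, 27 of them at an unadjusted p under 0.05, and the median was -1.17, from a median response of 0.47 in PRODH hearts and 2.06 in vector hearts. Without each library in turn this median ranged over -1.68 to -0.996, lowest without vector TAC replicate 1, where 28 of the 40 passed.

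Among 22 collagen genes 0 passed with all libraries, all 22 lay below 0 and 10 had an unadjusted p under 0.05, and the median was -0.80. When vector TAC replicate 1 was left out, 13 of the 22 passed, all below 0, at a median of -1.38. Col8a1, a short-chain collagen, had an interaction of -1.89 ± 0.48 (limma adjusted p = 0.196) and Col1a2 and Col5a2 had -1.497 ± 0.46 and -1.55 ± 0.48 (limma adjusted p = 0.294 and 0.308), and all 3 passed without that library, at -2.42, -2.01 and -2.16 (limma adjusted p = 0.000309, 0.000449 and 1.96e-05). Of the 22 genes that process and crosslink collagen 0 passed and 19 lay below 0, with a median of -0.66, and 14 passed without vector TAC replicate 1, all below 0. Lox, lysyl oxidase, which forms the crosslinks, had 144, 112 and 97.7 normalized reads in PRODH TAC hearts, 80.8, 110.4 and 55.8 in PRODH sham hearts, 262, 1745 and 901 in vector TAC hearts and 69.9, 84.2 and 115 in vector sham hearts. Its vector TAC hearts ranged widely, with replicate 1 again the lowest, and all lay above all other hearts, at an interaction of -2.52 ± 0.67 (limma adjusted p = 0.215). Loxl1, a relative of Lox, and Pcolce, which helps to trim procollagen, had -1.35 ± 0.34 and -1.10 ± 0.26 (limma adjusted p = 0.196 and 0.16). Without that replicate Lox, Loxl1 and Pcolce passed at -3.27, -1.70 and -1.33 (limma adjusted p = 0.000398, 0.000449 and 0.00162).

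Signalling genes of the matrix followed with smaller medians. Of 36 tested TGF-beta and myofibroblast genes 0 passed and 30 lay below 0, with a median of -0.58. Leaving out vector TAC replicate 1, 12 of the 36 passed, all below 0, at a median of -0.78. Ltbp2, a latent TGF-beta binding protein of microfibrils, had 165, 146 and 127 normalized reads in PRODH TAC hearts, 52.3, 45.3 and 31.7 in PRODH sham hearts, 495, 5119 and 3628 in vector TAC hearts and 36, 76.1 and 80.9 in vector sham hearts. PRODH TAC hearts lay above both sham groups and far below vector TAC hearts, with an interaction of -3.33 ± 0.85 (limma adjusted p = 0.196). Tgfb3, a TGF-beta ligand, and Itgbl1, an integrin-like secreted protein, had -1.36 ± 0.29 and -1.82 ± 0.39 (limma adjusted p = 0.0972 and 0.0975). In the fit without that library Ltbp2, Tgfb3 and Itgbl1 passed at -4.37, -1.63 and -2.02 (limma adjusted p = 1.96e-05, 0.000561 and 0.00779).

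Of 24 tested Wnt genes 0 passed, and their median was -0.56, while 4 passed below 0 without vector TAC replicate 1. The secreted Wnt antagonists Frzb and Sfrp1 had interactions of -2.03 ± 0.42 and -1.63 ± 0.34 (limma adjusted p = 0.0856 and 0.0901), while Wnt5a, a ligand, had 0.94 ± 0.24 in the other direction (limma adjusted p = 0.204). Frzb and Sfrp1 passed without that library at -2.45 and -1.84 (limma adjusted p = 0.000412 and 0.00457), and Wnt5a did not. Among 22 matrix proteases and inhibitors the median was closer to 0, at -0.19 with 0 called, against -0.54 with 4 called below 0 when vector TAC replicate 1 was left out. Timp1, an inhibitor of metalloproteinases, had -2.08 ± 0.50, and Mmp2, Mmp23 and Adamts8, 3 metalloproteinases, had -1.24 ± 0.36, -1.22 ± 0.34 and -2.23 ± 0.63 (limma adjusted p = 0.16, 0.259, 0.234 and 0.246). Of these Timp1, Mmp2 and Adamts8 passed without it, at -2.37, -1.68 and -2.68 (limma adjusted p = 0.0149, 8.08e-06 and 0.0227).

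Hypertrophy and stress genes had the highest median response in PRODH hearts among the described lists. Of 27 members 0 passed and 23 lay below 0, at a median interaction of -0.58, with median responses of 0.88 in PRODH hearts and 1.30 in vector hearts. Nmrk2, a kinase of NAD synthesis, had -1.82 ± 0.37 (limma adjusted p = 0.0738). Without vector TAC replicate 1, 6 of the 27 passed, all below 0, and Nmrk2 was among the genes that passed, at -2.07 (limma adjusted p = 0.00262). In the list of serine synthesis, one-carbon and integrated stress response genes Nupr1 was the only call among 28 members, and the median was -0.24. Ddit3, a transcription factor of that response, and Phgdh, the first enzyme of serine synthesis, had -0.69 ± 0.21 and -1.34 ± 0.46 (limma adjusted p = 0.284 and 0.37).

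Lists of ion channels and of most fuel pathways had medians above 0. Channels for potassium, sodium, calcium and the pacemaker current had a median of 0.71 over 39 members, with 1 call (Hcn2) and 20 at an unadjusted p under 0.05 above 0 and 1 below 0. Kcnj3, a subunit of the acetylcholine-gated potassium channel, had 495, 629 and 569.8 normalized reads in PRODH TAC hearts, 1005, 847 and 1040.4 in PRODH sham hearts, 213, 139 and 221 in vector TAC hearts and 649, 1001 and 777 in vector sham hearts. PRODH TAC hearts lay between PRODH sham hearts and vector TAC hearts without overlap, and the interaction was 1.31 ± 0.27 (limma adjusted p = 0.0779). Kcnh2, which carries the rapid delayed rectifier current, and Kcnk3, a background potassium channel, had 1.14 ± 0.27 and 0.71 ± 0.18 (limma adjusted p = 0.16 and 0.196). Without vector TAC replicate 1, 8 of the 39 passed, all above 0, and Kcnj3, Kcnh2 and Kcnk3 had 1.41, 1.24 and 0.70 (limma adjusted p = 0.00779, 0.0197 and 0.0403).

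The metabolic lists had medians of 0.38 for 46 genes of fatty acid uptake and oxidation, 0.41 for 23 genes of branched-chain amino acid breakdown, 0.31 for 30 genes of the citrate cycle and pyruvate entry and 0.31 for 21 metabolic nuclear receptors and coactivators. Pdp2 was the only call among them with all libraries, and 5, 5, 2 and 1 members passed without vector TAC replicate 1, all above 0. Ppm1k, the phosphatase that activates branched-chain ketoacid breakdown, had 746, 904 and 941 normalized reads in PRODH TAC hearts, 1148, 807 and 1422 in PRODH sham hearts, 377, 332 and 451 in vector TAC hearts and 889.6, 1213 and 1200.0 in vector sham hearts. All PRODH TAC hearts lay above all vector TAC hearts and overlapped both sham groups, and the interaction was 1.15 ± 0.27 (limma adjusted p = 0.15). Ogdhl, a relative of the oxoglutarate dehydrogenase subunit, and Esrrg, an oestrogen-related receptor of mitochondrial genes, had 0.86 ± 0.20 and 0.72 ± 0.18 (limma adjusted p = 0.147 and 0.192). Acsl1, which activates long-chain fatty acids, and Dgat2, which makes triglyceride, had 0.69 ± 0.22 and 0.78 ± 0.24 (limma adjusted p = 0.332 and 0.288). All 5 of these genes passed without vector TAC replicate 1, with interactions of 1.14, 0.99, 0.79, 0.78 and 0.92 in the order named (limma adjusted p = 0.0413, 0.00461, 0.0227, 0.0419 and 0.0234).

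In the list of proline and glutamate metabolism 0 of 24 tested members passed, with a median of 0.25. Gpt2, a mitochondrial alanine aminotransferase, had 1.06 ± 0.27 and Slc36a2, a transporter of proline and glycine, had 1.07 ± 0.30 (limma adjusted p = 0.196 and 0.233). With vector TAC replicate 1 left out, 4 of the 24 passed, all above 0, and both genes passed at 1.34 and 1.25 (limma adjusted p = 0.000436 and 0.0234). Calcium cycling genes had a median of 0.21 over 26 members and 0 calls. Camk2a, a calcium-dependent kinase, and Pde4d, which degrades cyclic AMP, had 0.81 ± 0.22 and 1.005 ± 0.29 (limma adjusted p = 0.218 and 0.25). Medians of the 28 sarcomere genes and the 60 oxidative phosphorylation genes lay at -0.11 and -0.07, with 0 called in either. Both medians changed sign, to 0.05 and 0.25, without vector TAC replicate 1, where 2 sarcomere genes passed below 0.

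**Figure D4:**
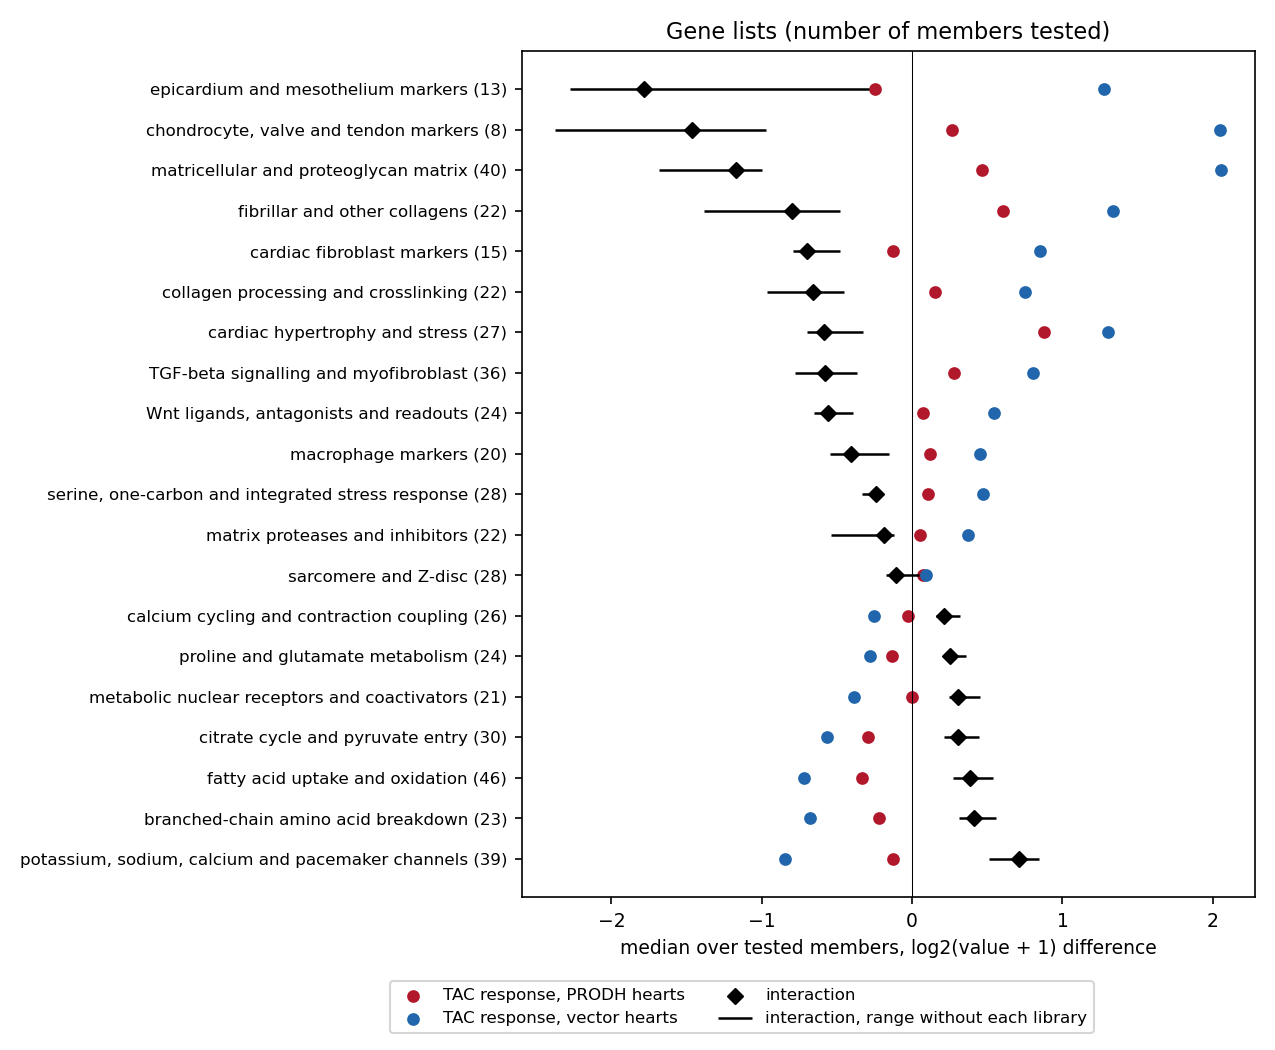
Median interaction (diamonds) with its range over 12 fits without each library (lines), beside the median response to TAC in PRODH hearts (red) and vector hearts (blue), as log2 differences for 20 gene lists. Matrix lists lie left of 0 with vector responses up to 2.06, channel and fatty acid lists lie right of 0, and the mesothelial list has the widest range.

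Markers of fibroblasts and of cartilage, valve and tendon cells had medians below 0, as the matrix lists did, while those of 15 endothelial, 12 smooth muscle and 12 ventricular myocyte markers were 0.20, -0.13 and 0.13 with 0 called. Over the fits without each library these 3 medians ranged over -0.05 to 0.28, -0.34 to 0.05 and 0.04 to 0.30. The endothelial and smooth muscle medians thus changed sign. The 15 cardiac fibroblast markers had a mean log2 level of 9.72 to 9.83 in PRODH TAC, 9.63 to 9.96 in PRODH sham, 10.3 to 10.5 in vector TAC and 9.63 to 9.77 in vector sham hearts, so only vector TAC hearts stood apart. Of them 1 passed the interaction (Mfap5), 14 lay below 0, and the median was -0.70. Dcn, decorin, a collagen-binding proteoglycan of fibroblasts, had -0.98 ± 0.24, while Scara5, a marker of resting adventitial fibroblasts, had 1.09 ± 0.28 in the other direction (limma adjusted p = 0.171 and 0.204). Without vector TAC replicate 1, 5 of the 15 passed, all below 0, and Dcn had -1.03 (limma adjusted p = 0.0161). The 8 tested markers of cartilage, valve and tendon cells had a median of -1.46 with 0 called (-2.37 with 3 called below 0 when vector TAC replicate 1 was left out), and their mean log2 level was 4.04 to 5.69 in vector TAC hearts and 2.80 to 3.69 in all others. Tnmd, tenomodulin, a membrane protein of tendon cells, averaged 0.662 ± 1.15 in PRODH TAC hearts, 0.365 ± 0.632 in PRODH sham hearts, 83.6 ± 66 in vector TAC hearts and 0 ± 0 in vector sham hearts (SD, n = 3 each), with an interaction of -5.55 ± 1.16 (limma adjusted p = 0.0868) that passed without that library at -6.75 (limma adjusted p = 0.000436). The part of changed cell numbers in these results was not tested.

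Macrophage markers had a median of -0.41 over 20 members, with 0 called and a mean log2 level of 7.96 to 8.27 in PRODH TAC, 7.69 to 8.33 in PRODH sham, 7.995 to 8.86 in vector TAC and 7.91 to 8.30 in vector sham hearts. Without vector TAC replicate 1 the median was -0.16 and 1 member passed above 0. It turned to 0.04 without PRODH sham replicate 2 and vector TAC replicate 1 together. Epicardial and mesothelial markers had the lowest median of the described lists, -1.78 over 13 members with 0 called. The sign of this median depended on the same pair of libraries, though not every member followed them. The median turned to 1.24 without them, and to -0.29 with 1 call below 0 when only vector TAC replicate 1 was left out. Msln, mesothelin, which defines this layer, had 5.96, 1.10 and 10.98 normalized reads in PRODH TAC, 0, 85.0 and 3.28 in PRODH sham, 140.6, 0 and 0 in vector TAC and 0, 0 and 2.10 in vector sham hearts. Igfbp6, another member, had 1229, 1111 and 1121 normalized reads in vector TAC hearts, against 420, 339 and 345 in PRODH TAC hearts. Krt18, a further member, had 48, 61.7 and 33.6 against 13.9, 8.78 and 3.29. Their interactions were -1.79 and -4.41 (limma adjusted p = 0.0657 and 0.139). Igfbp6 passed without vector TAC replicate 1 alone, at -1.74 (limma adjusted p = 0.0164). When the pair was dropped Igfbp6 and Krt18 had -1.47 and -3.60 (limma adjusted p = 0.042 and 0.12). In that fit Krt8 was -1.40 and Krt7 0.25. The part of the epicardial and mesothelial layer in the other results was not tested. A fit without both libraries called 246 genes (1.16%), 68 above 0 (0.321%) and 178 below 0 (0.841%), among them all 22.

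The genes that TAC moved in vector hearts can be followed into the PRODH arm, whose values do not enter the vector difference that chose them, although all 12 libraries share the estimate of spread behind the call, while their size in vector hearts is raised by the choice itself. Of 787 genes that rose in vector hearts, with a median response of 1.22, 677 (86%) had a response above 0 in PRODH hearts, at a median of 0.34. In 609 of them (77.4%) the PRODH response was less than 0.5 of the vector response, and 4 passed the test in PRODH hearts. Of 858 genes that fell in vector hearts, with a median of -0.83, 771 (89.9%) had a response below 0 in PRODH hearts, at a median of -0.29. In 634 of them (73.9%) it was less than 0.5 of the vector response, and 1 passed in PRODH hearts. The 22 interaction calls divide into 12 of the risen and 10 of the fallen genes.

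Averaged over the 787 risen genes, each library's level relative to the vector sham mean was 0.55, 0.41 and 0.48 in PRODH TAC, -0.09, 0.20 and -0.02 in PRODH sham, 1.22, 1.76 and 1.57 in vector TAC and -0.09, 0.01 and 0.08 in vector sham hearts (log2). Over the 858 fallen genes it was -0.36, -0.21 and -0.28 in PRODH TAC, 0.12, -0.06 and 0.10 in PRODH sham, -0.88, -1.20 and -1.03 in vector TAC and -0.07, 0.07 and -0.0012 in vector sham hearts. On both scores the PRODH TAC hearts lay between the sham hearts and the vector TAC hearts without overlap, and PRODH sham and vector sham hearts overlapped. Since the vector arm chose the genes, the vector values are a description.

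A few genes responded to TAC in PRODH hearts past the threshold, and their interactions show where both arms moved alike in direction. Ankrd1, a stretch-responsive protein of the sarcomere, had 37148, 24188 and 31785 normalized reads in PRODH TAC hearts, 9786, 9110.5 and 11286 in PRODH sham hearts, 55188, 63516 and 58112 in vector TAC hearts and 7801, 7371 and 13117 in vector sham hearts. PRODH TAC hearts lay above all sham hearts and below all vector TAC hearts, with responses of 1.61 ± 0.24 and 2.69 ± 0.24 in PRODH and vector hearts and an interaction of -1.08 ± 0.35 (limma adjusted p = 0.0362, 2.59e-05 and 0.321). Uck2, a uridine and cytidine kinase, had an interaction of -0.84 ± 0.23 and Ano10, a member of the anoctamin family, one of 0.35 ± 0.18, with responses of 1.08 ± 0.16 and -1.03 ± 0.13 in PRODH hearts and 1.93 ± 0.16 and -1.38 ± 0.13 in vector hearts (limma adjusted p of the interactions = 0.225 and 0.646). Klhl34, a kelch-family protein, had 208, 197 and 209.7 normalized reads in PRODH TAC hearts, 75.1, 78.4 and 84.2 in PRODH sham hearts, 179.6, 188 and 230.1 in vector TAC hearts and 68.9, 82.4 and 83 in vector sham hearts. TAC hearts of both arms overlapped each other and lay far above both sham groups, and the interaction of 0.02 ± 0.22 had a 95% interval of -0.46 to 0.50 (limma adjusted p = 0.989). The fifth, Nppb, is described above. The 5 genes were chosen by their call in PRODH hearts, after their values were seen.

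How far the 22 calls depend on single libraries is seen from the fits without each library. All 22 passed without vector TAC replicate 1, and 14 without vector sham replicate 1. Between 1 and 6 of them passed without PRODH TAC replicates 1 or 2, PRODH sham replicates 1 or 3, vector TAC replicate 3 or vector sham replicate 3. Across the 12 fits Csrp2 passed in 7 and Nupr1 and Dusp18 in 6 each. Vector TAC replicate 1 differed from replicates 2 and 3 of the same group by a chi-square per degree of freedom of 87.22 and 82.46, against 4.37 to 29.46 for the other pairs of replicates.

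**Figure D5:**
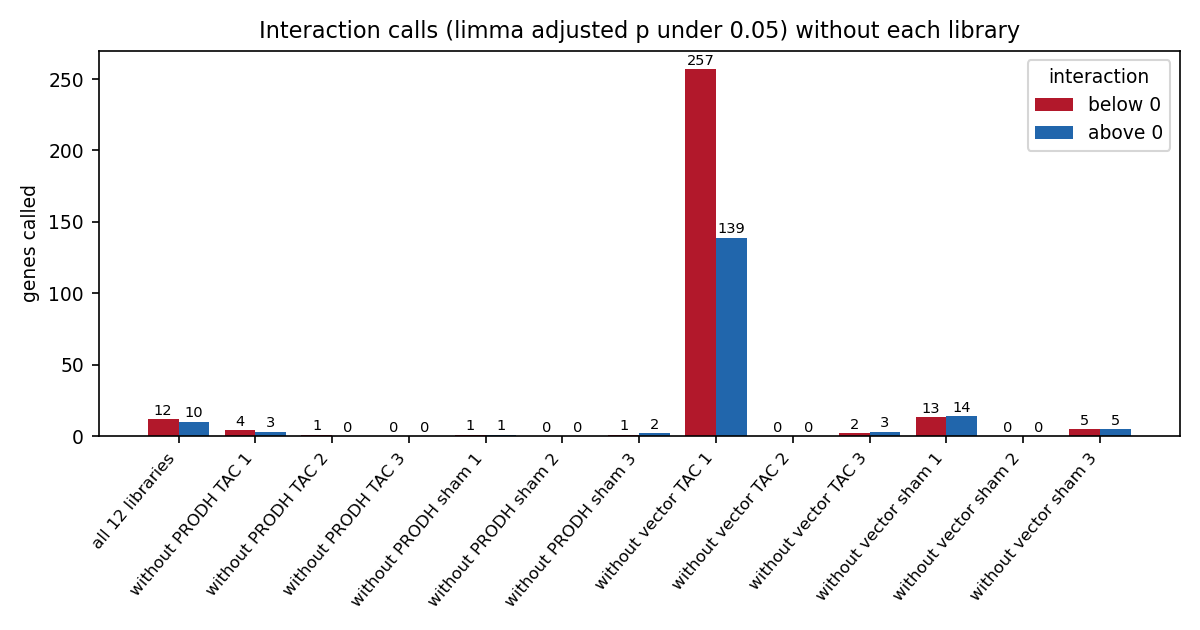
Number of genes whose interaction passed (limma adjusted p under 0.05), below 0 in red and above 0 in blue, with all 12 libraries and without each library in turn. The count was 257 below 0 and 139 above 0 without vector TAC replicate 1 and at most 14 in either direction in every other fit.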

How the data were processed

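Heart RNA of 12 libraries, 3 in each of 4 groups named in the labels, was prepared by TRIzol extraction, DNase I digestion and a SMARTER mRNA-Seq kit, per the labels' protocols. The authors' aligner, counter, genome build and annotation were not given in the sources used here. In the deposited table are 24775 genes, and its signal is a read count scaled by the size factor of its library, as the values show: in every library they advance in equal steps (0.685 to 1.14, by library), and 100% of them came out whole, to within 0.01, when divided by that step. The reads recovered by dividing were used for depth and for count tests as alternatives. The values are counts divided by a factor rather than raw counts, so limma was the main test.

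The 21173 genes that reached a value of 1 in 3 or more libraries were fitted with limma 3.58.1 (R 4.3.3, trended prior) on log2(value + 1), with 1 mean per group over all 12 libraries. Called, or passed, means a Benjamini-Hochberg adjusted p under 0.05 over all genes tested. The pseudocount understates changes of genes with few reads. A permutation of 3 libraries against 3 cannot go below p = 0.1, so p-values rest on the model. Replicates are numbered in the labels with no word on litter, batch or day, and p-values measure the spread between these libraries. All replicates differed beyond counting error, so each counts as 1.

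The genes and 39 gene lists were chosen with earlier results of these data known. Named genes were 12 genes of load and proline metabolism, up to 12 genes in each direction by interaction with a mean of at least 10 and a symbol of their own (the called ones, then those with the smallest p), and the 4 members of lowest p, or fewer, in each list described. Lists were described by counts and medians, without a test of the list. Alternatives were other pseudocounts (0.1 and 5), filters, scalings (quantile, upper quartile, library size, TMM), edgeR 4.0.16, DESeq2 1.42.0 and voom on recovered reads, array weights, robust priors, a block by replicate number, and leaving out libraries. Thinning to the lowest total was added after seeing the data. Of the gene identifiers 24735 matched GENCODE M21. Pseudogene identity came from blastn 2.17.0 and promoters from RefSeq. The procedure was tested on simulated data.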

Additional observations from a re-analysis of the deposited data

Results flagged for a closer look

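The interaction is itself a test of whether the response to TAC differed between PRODH and vector hearts, and the 22 genes that passed it are listed here with their log2 values (limma adjusted p under 0.05). Below 0 were Fmod (-6.65), Sprr1a (-5.74), Cthrc1 (-5.55), Chodl (-5.38), Gm32255 (-3.89), Nupr1 (-2.07), Mfap5 (-1.97), Mfap4 (-1.96), Eya2 (-1.81), Fibin (-1.75), Csrp2 (-1.70) and Ctsk (-1.40). Above 0 were Klhl33 (1.94), Lingo3 (1.83), Gm28439 (1.76), Whrn (1.61), Dusp18 (1.57), Wnk2 (1.55), Pdp2 (1.45), Hcn2 (1.33), Tmem82 (1.29) and P2ry1 (1.14). In 14 of the 22 the response in PRODH hearts had the sign of the response in vector hearts and was smaller, in 7 its sign was opposite and in 1 (Gm32255, with 0 reads in all PRODH hearts) it was 0, though none of the 22 passed in PRODH hearts. With 3 libraries in a group, single genes were not screened for an outlying value in a library. Whole libraries that stood apart, and the fits without them, are described above.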

How the results depend on the processing

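The direction of the 22 interactions was kept under all settings in which they could be computed (20 of 22 under the filter on a mean of at least 10), while the number of calls moved widely. Against 22 calls, there were 7 with a pseudocount of 0.1, 8 with the filter on a mean of at least 10, 13 after thinning to the lowest total, 5 with voom, 197 with DESeq2, 490 with array weights and 246 without PRODH sham replicate 2 and vector TAC replicate 1. Other settings gave 17 to 32, and edgeR, which called 32, shared 18 of the 22. Leaving out each library gave 0 to 396 interaction calls, 0 to 287 for TAC in PRODH hearts (11 with edgeR over all libraries), 817 to 3420 for TAC in vector hearts, 248 to 2719 for PRODH against vector in TAC hearts and 0 to 2 in sham hearts. The 0 came without PRODH TAC replicate 3, PRODH sham replicate 2, vector TAC replicate 2 and vector sham replicate 2 for the interaction, and the highest counts without vector TAC replicate 1. The cause was not tested.

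The replicate number as a block gave 35 interaction calls (11 above 0 and 24 below 0), 19 of them among the 22. These values cannot settle if the numbers pair the libraries. Of 18 pairs with the same number 2 had a correlation of residuals above 0.1 (range -0.049 to 0.14), and 5 of 12 libraries correlated best with their own number. Both pairs above 0.1 joined vector TAC and vector sham, at 0.124 and 0.14. Vector TAC replicate 3 and vector sham replicate 2, with unlike numbers, had 0.142.

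Sign changes among the named genes touched values that did not pass. Myh6 was -0.0713 under quantile scaling. Klhl34 was -0.0258 with array weights, -0.0535 without PRODH sham replicate 2 and vector TAC replicate 1, and -0.0465 to 0.13 over the fits without each library. Under array weights Gm28661 was 0.11. Without both libraries Gm28661 was 0.21, Gm28438 0.49, Gm29216 0.26 and Krt7, a keratin of mesothelium, 0.25. Over the fits without each library Gm28438 was -0.92 to 0.16 and Gm28661 -0.57 to 0.16. Of the medians of the 39 lists under these settings 58 moved by more and 1034 by less than the spread between replicates. No scaling moved the median interaction of all genes by 0.1. At 10.1 to 15.2 M reads, genes with a handful of reads, such as Chodl and Gm32255, carry fitted values that follow the pseudocount.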
